A study of Homo sapiens with 12 samples.

Results

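Control HK-2 cells harvested at 48 h were compared with control HK-2 cells harvested at 24 h, to ask how the transcriptome of vehicle-treated cultures moved between the times at which a compound was sampled. The comparison rests on the 6 arrays labelled as control samples, 3 at 48 h and 3 at 24 h, of 12 arrays in the series, and the other 6 held cells given a low dose of the compound Aa at the same times. Values are log2 GCRMA values, array signals after background correction and normalisation by the authors. The comparison covered 10791 of 19775 genes, those with a probe set of mean log2 value at least 4 over the 12 arrays. HK-2 is an immortalised line of human proximal tubule epithelium. All groups had been seeded 24 h before treatment, were treated near confluence, and grew in a medium listed without serum, with 5 mM glucose, EGF, hydrocortisone, insulin, transferrin and selenite. Control cells received the vehicle, which the labels do not name, as they do not give the dose or the full name of Aa. Time in culture, cell density and age of the medium all move with the harvest time and cannot be told apart here.

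Proximal tubule cells reabsorb solutes, amino acids and small proteins from the kidney's filtrate, and they are a main target of renal toxins. Cultured epithelium that reaches confluence commonly leaves the cell cycle. In a cycling cell the genes for DNA replication are switched on through E2F factors before S phase. Those for mitosis follow later, through the MuvB complex with B-MYB and FOXM1, at sites known as CHR, often with CCAAT boxes nearby. When cells rest, E2F and MuvB complexes repress the same genes.

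The promoters of 3 mitosis genes and 3 replication genes that were lower at 48 h are shown, because these lists had the largest shares of falls. Each is the window of 250 bases before and 50 after the gene start, taken from RefSeq (GRCh38.p14), and the genes are the first 3 of each list, by p, with an entry. Capitals mark matches on either strand to an E2F motif (TTCCCGC or TTGGCGC), a CHR (TTTGAA or TTCGAA) or a CCAAT box. KIF23, a kinesin of the midbody, has a CCAAT box and a CHR that start 64 and 55 bases before the gene start. In MKI67, which encodes the proliferation antigen Ki-67, the second CHR shares a base with a CCAAT box.
MYBL2 (chr20:43666864-43667163, plus strand): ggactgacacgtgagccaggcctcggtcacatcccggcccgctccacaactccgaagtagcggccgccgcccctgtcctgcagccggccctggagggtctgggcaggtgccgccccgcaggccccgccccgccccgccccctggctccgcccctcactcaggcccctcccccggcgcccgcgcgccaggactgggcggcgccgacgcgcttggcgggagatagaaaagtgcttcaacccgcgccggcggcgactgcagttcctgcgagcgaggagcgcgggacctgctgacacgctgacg
KIF23 (chr15:69414099-69414398, plus strand): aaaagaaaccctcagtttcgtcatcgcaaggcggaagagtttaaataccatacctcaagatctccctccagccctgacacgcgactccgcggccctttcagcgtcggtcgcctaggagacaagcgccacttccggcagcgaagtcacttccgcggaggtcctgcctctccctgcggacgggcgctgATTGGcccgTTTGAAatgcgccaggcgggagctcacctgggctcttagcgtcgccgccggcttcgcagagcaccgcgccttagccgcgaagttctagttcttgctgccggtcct
MKI67 (chr10:128126374-128126673, minus strand): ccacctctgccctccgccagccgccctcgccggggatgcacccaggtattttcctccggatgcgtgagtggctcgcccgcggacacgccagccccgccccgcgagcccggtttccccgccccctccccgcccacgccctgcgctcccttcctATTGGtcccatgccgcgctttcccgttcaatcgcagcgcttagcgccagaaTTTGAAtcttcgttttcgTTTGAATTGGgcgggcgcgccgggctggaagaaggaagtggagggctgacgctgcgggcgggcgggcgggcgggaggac
MCM10 (chr10:13161308-13161607, plus strand): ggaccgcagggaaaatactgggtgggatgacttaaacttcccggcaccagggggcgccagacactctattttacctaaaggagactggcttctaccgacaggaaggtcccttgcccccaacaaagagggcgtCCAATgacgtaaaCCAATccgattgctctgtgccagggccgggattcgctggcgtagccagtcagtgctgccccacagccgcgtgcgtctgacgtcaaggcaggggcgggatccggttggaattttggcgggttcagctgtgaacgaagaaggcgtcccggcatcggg
UHRF1 (chr19:4909251-4909550, plus strand): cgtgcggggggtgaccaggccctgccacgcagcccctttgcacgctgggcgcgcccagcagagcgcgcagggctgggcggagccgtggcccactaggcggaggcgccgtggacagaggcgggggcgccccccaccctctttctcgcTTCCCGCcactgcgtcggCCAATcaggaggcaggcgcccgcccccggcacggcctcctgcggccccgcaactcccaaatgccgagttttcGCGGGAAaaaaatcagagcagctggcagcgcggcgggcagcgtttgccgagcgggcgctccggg
CCNA2 (chr4:121823834-121824133, minus strand): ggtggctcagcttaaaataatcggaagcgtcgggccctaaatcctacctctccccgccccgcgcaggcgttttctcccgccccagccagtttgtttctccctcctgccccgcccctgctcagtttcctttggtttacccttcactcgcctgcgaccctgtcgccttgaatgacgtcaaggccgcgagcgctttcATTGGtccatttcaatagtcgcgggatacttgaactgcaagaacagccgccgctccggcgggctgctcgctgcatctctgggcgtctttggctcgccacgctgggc
MYBL2, which encodes B-MYB, had no match to these motifs in its window. A CHR was found in 20 of 29 mitosis promoters (69.0%), against 978 of the 8926 promoters of genes tested and 16.6% of all 27305 promoters of that length. Of the mitosis genes that fell, 72.7% of 22 had a CHR and 4.5% an E2F motif, and of the replication genes that fell, 0 of 20 had a CHR and 55.0% an E2F motif. The E2F motif was in 15.5% of the promoters of genes tested and in 9.3% of all. Among all tested list members, fallen or not, it was in 63.9% of 36 replication promoters and 20.7% of 29 mitosis promoters. Both shares were above those of the fallen members. The CCAAT box was in 72.7% of the fallen mitosis genes, 55.0% of the fallen replication genes, 37.4% of genes tested and 35.7% of all. These matches describe sequence only, and only the letters given were searched. Near forms, such as cttgaa in CCNA2 or ttggcggg in MYBL2 and MCM10, were not counted.

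The lowest Pearson's r across probe sets was 0.995 among the 48 h arrays and 0.996 among the 24 h arrays. Between the times r was 0.991 to 0.997, so some arrays of different times were as alike as replicates. The 3′ minus 5′ signal of the actin control probe sets was 0.78 ± 0.19 at 48 h and 0.79 ± 0.10 at 24 h (log2, SD, n = 3 each). Of 5 control probe sets for ribosomal RNA, 4 were higher at 48 h in all 3 pairs and 1 in 2 pairs, by 0.53, 1.12 and 0.67 for 18S and by 0.91 and 0.22 for 28S (log2 means). A further 28S probe set, left out of the 5, lay between 1.62 and 1.63 on all control arrays. The part of the ribosomal RNA difference in the results was not tested. Of the marker genes, 6 of 6 for epithelium, 4 of 15 for the proximal tubule, 1 of 9 for the distal nephron, 3 of 7 for fibroblasts, 0 of 6 for endothelium and 0 of 6 for leukocytes passed the filter. Of the proximal tubule markers, DPP4, PAX8, CDH6 and SLC3A1 were measured, while LRP2, CUBN, SLC34A1 and AQP1 lay between 2.09 and 3.20.

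At 48 h against 24 h, 1919 genes changed in control cells, 17.8% of those tested. Of these 938 were higher at 48 h (8.69%) and 981 lower (9.09%), by limma at a Benjamini-Hochberg adjusted p under 0.05, with the replicate number as a block. The changes were mostly small. Their median size was 0.45 on the log2 scale, and 46 genes rose and 34 fell by at least 2-fold. The 3 arrays of one time lay wholly above the 3 of the other for 1154 of the called genes, and for 23.1% of all genes tested. Of the called genes, 1916 moved one way in all 3 replicate pairs. The test itself rests on these pairs, so this is no separate support, and the share over all genes was not counted. The adjusted count rests heavily on the pairing and on replicate 1. Without the block 54 genes were called (25 higher, 29 lower, 0.500% of genes tested), all of them among the 1919. Without replicate 1, 2 or 3 at both times and in both treatments, 2, 286 and 654 genes were called. These runs have fewer arrays, which also weakens the test. At an unadjusted p under 0.05, limma called 2266, 2833 and 2890 genes in them, against 3606 in the main fit.

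The genes described next are the 12 largest rises and the 12 largest falls among called genes whose times did not overlap and whose mean was at least 5 at the higher time. Agreement of the 3 pairs follows from this rule for all of these genes. BLNK rose most among them. It encodes an adaptor protein best known from B cell receptor signalling. BLNK had log2 values of 7.49, 7.76 and 6.05 at 48 h, against 3.00, 4.40 and 2.62 at 24 h, and the mean change was 3.76 (SE 0.42, adjusted p = 0.00232). The 24 h arrays lay near or below the filter value of 4, and whether they exceed background was not tested, so the fold of 13.6 is uncertain. KRT20, a keratin of intestinal epithelium that is also known as a marker of tubule injury, followed. KRT20 values were 9.24, 9.51 and 9.42 at 48 h, against 6.70, 8.38 and 7.16 at 24 h (log2), a change of 1.98 (SE 0.40, adjusted p = 0.0132). The 48 h arrays were nearly equal, and replicate 2 stood apart at 24 h.

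SLC6A13 encodes a transporter of GABA and taurine found in the proximal tubule. SLC6A13 measured 10.55, 10.63 and 9.44 at 48 h, against 8.38, 8.67 and 8.01 at 24 h (log2), and changed by 1.85 (SE 0.15, adjusted p = 0.00129). Without shared probe sets, those whose names mark a match to more than 1 transcript or sequence (x, s or a in the name), the change of SLC6A13 was 1.17 (adjusted p = 0.0319). SLC27A2, a very long-chain acyl-CoA synthetase and fatty acid transporter of the same segment, moved by less. SLC27A2 had log2 values of 9.55, 9.36 and 8.80 at 48 h, against 8.28, 8.28 and 7.46 at 24 h, and the mean change was 1.23 (SE 0.22, adjusted p = 0.00857). SLC44A5 belongs to the choline transporter-like family. SLC44A5 values were 9.33, 9.65 and 8.49 at 48 h, against 7.61, 8.12 and 6.90 at 24 h (log2), a change of 1.61 (SE 0.35, adjusted p = 0.0161). PLA1A, a phospholipase that acts on phosphatidylserine, was one of only 2 genes among the 24 largest changes to keep its call in every alternative run. PLA1A measured 9.55, 9.56 and 8.80 at 48 h, against 7.69, 7.82 and 7.21 at 24 h (log2), and changed by 1.73 (SE 0.12, adjusted p = 0.00106). BCO1 cleaves beta-carotene to retinal. BCO1 had log2 values of 6.75, 6.64 and 6.42 at 48 h, against 5.75, 5.41 and 4.83 at 24 h, and the mean change was 1.27 (SE 0.14, adjusted p = 0.0025).

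INHBE, the beta E subunit of the inhibin and activin family, was higher by almost the same amount in each pair. INHBE values were 8.53, 9.01 and 7.68 at 48 h, against 6.70, 7.21 and 5.77 at 24 h (log2), a change of 1.85 (SE 0.17, adjusted p = 0.00129). CDON is a surface receptor that binds hedgehog ligands. CDON measured 7.52, 7.53 and 6.26 at 48 h, against 5.74, 5.39 and 4.96 at 24 h (log2), and changed by 1.74 (SE 0.29, adjusted p = 0.00694). FREM2, a basement membrane protein of the Fraser complex, and RAB17, a small GTPase of epithelial recycling and transcytosis, rose too. FREM2 had log2 values of 6.93, 7.33 and 6.41 at 48 h, against 5.52, 5.50 and 5.12 at 24 h, and the mean change was 1.51 (SE 0.13, adjusted p = 0.00129). RAB17 values were 9.00, 9.44 and 8.79 at 48 h, against 7.75, 7.68 and 7.43 at 24 h (log2), a change of 1.46 (SE 0.13, adjusted p = 0.00129). Replicate 2 was the highest of the 48 h arrays for both genes. CNN3-DT is a transcript that diverges from CNN3. CNN3-DT measured 6.35, 6.01 and 5.91 at 48 h, against 4.99, 4.43 and 4.68 at 24 h (log2), and changed by 1.39 (SE 0.19, adjusted p = 0.00402).

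TNFAIP6 had the lowest fitted change of these falls. It encodes TSG-6, a hyaluronan-binding protein induced by inflammatory signals. TNFAIP6 had log2 values of 2.79, 2.77 and 3.03 at 48 h, against 5.65, 5.81 and 7.18 at 24 h, and the mean change was -3.35 (SE 0.34, adjusted p = 0.00192). All 48 h arrays of TNFAIP6 lay under 4, and whether they exceed background was not tested, so the size of the fall and its rank are uncertain. MMP1, the interstitial collagenase, kept its call in every alternative run. MMP1 values were 3.98, 4.91 and 4.92 at 48 h, against 7.30, 8.10 and 7.71 at 24 h (log2), a change of -3.10 (SE 0.19, adjusted p = 0.000663). No 48 h array came within 2 log2 units of a 24 h array. INHBA, which encodes the subunit of activin A, was lower as well. INHBA measured 4.93, 5.83 and 6.55 at 48 h, against 7.44, 7.87 and 7.64 at 24 h (log2), and changed by -1.88 (SE 0.33, adjusted p = 0.0079). COL12A1, a collagen that associates with fibrils, fell by unequal amounts. COL12A1 had log2 values of 3.81, 4.04 and 4.52 at 48 h, against 5.77, 4.53 and 6.68 at 24 h, and the mean change was -1.54 (SE 0.28, adjusted p = 0.00963). The second pair moved least. The 48 h arrays of COL12A1 lay near the filter value of 4, and whether they exceed background was not tested, so the size of its fall is uncertain.

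TAGLN, the actin-binding protein transgelin, had nearly equal values on all 48 h arrays. Whether these exceed background was not tested, so the size of the fall is uncertain. TAGLN values were 4.40, 4.39 and 4.40 at 48 h, against 6.45, 5.72 and 5.80 at 24 h (log2), a change of -1.59 (SE 0.30, adjusted p = 0.0105). AFAP1L2, an adaptor linked to Src, and DPYSL3, a cytoskeletal protein of the collapsin response mediator family, also fell. AFAP1L2 measured 3.21, 4.10 and 4.27 at 48 h, against 5.87, 4.92 and 5.90 at 24 h (log2), and changed by -1.70 (SE 0.27, adjusted p = 0.00583). DPYSL3 had log2 values of 7.91, 8.0 and 8.25 at 48 h, against 9.38, 9.17 and 10.08 at 24 h, and the mean change was -1.49 (SE 0.11, adjusted p = 0.00106). Replicate 2 fell least for both. The 48 h mean of AFAP1L2 was 3.86, under the filter value of 4, so the size of its fall is uncertain as well. SLN encodes sarcolipin, an inhibitor of the calcium pump of muscle. SLN values were 5.09, 4.69 and 7.64 at 48 h, against 8.62, 8.22 and 9.37 at 24 h (log2), a change of -2.93 (SE 0.41, adjusted p = 0.00404). Replicate 3 fell by less than the other replicates. TM4SF4 is a membrane protein of the transmembrane 4 superfamily. TM4SF4 measured 3.07, 4.95 and 4.76 at 48 h, against 5.99, 7.09 and 6.53 at 24 h (log2), and changed by -2.27 (SE 0.25, adjusted p = 0.00232). Its replicate 1 array at 48 h lay under 4, so the size of this fall is uncertain too. ZBED2, a zinc finger transcription factor, and the long non-coding transcript LINC00973 were lower at 48 h. ZBED2 had log2 values of 4.07, 6.16 and 6.21 at 48 h, against 6.57, 7.14 and 8.12 at 24 h, and the mean change was -1.80 (SE 0.34, adjusted p = 0.0105). LINC00973 values were 4.41, 5.45 and 6.95 at 48 h, against 7.15, 7.51 and 8.09 at 24 h (log2), a change of -1.98 (SE 0.33, adjusted p = 0.00711). Replicate 1 had the lowest value of both at 48 h.

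TXNIP is an arrestin-like protein that binds thioredoxin and restrains glucose uptake, and its transcription follows glucose. TXNIP measured 6.32, 6.33 and 8.92 at 48 h, against 9.66, 10.08 and 9.78 at 24 h (log2), and changed by -2.65 (SE 0.53, adjusted p = 0.0129). The pairs differed in size, -3.34, -3.75 and -0.86, since replicate 3 stayed high at 48 h. All 3 probe sets of the gene moved the same way. The call was lost in 7 of 18 alternatives, among them without the block (adjusted p = 0.0657) and without replicate 1 or 2.

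**Figure D1:**
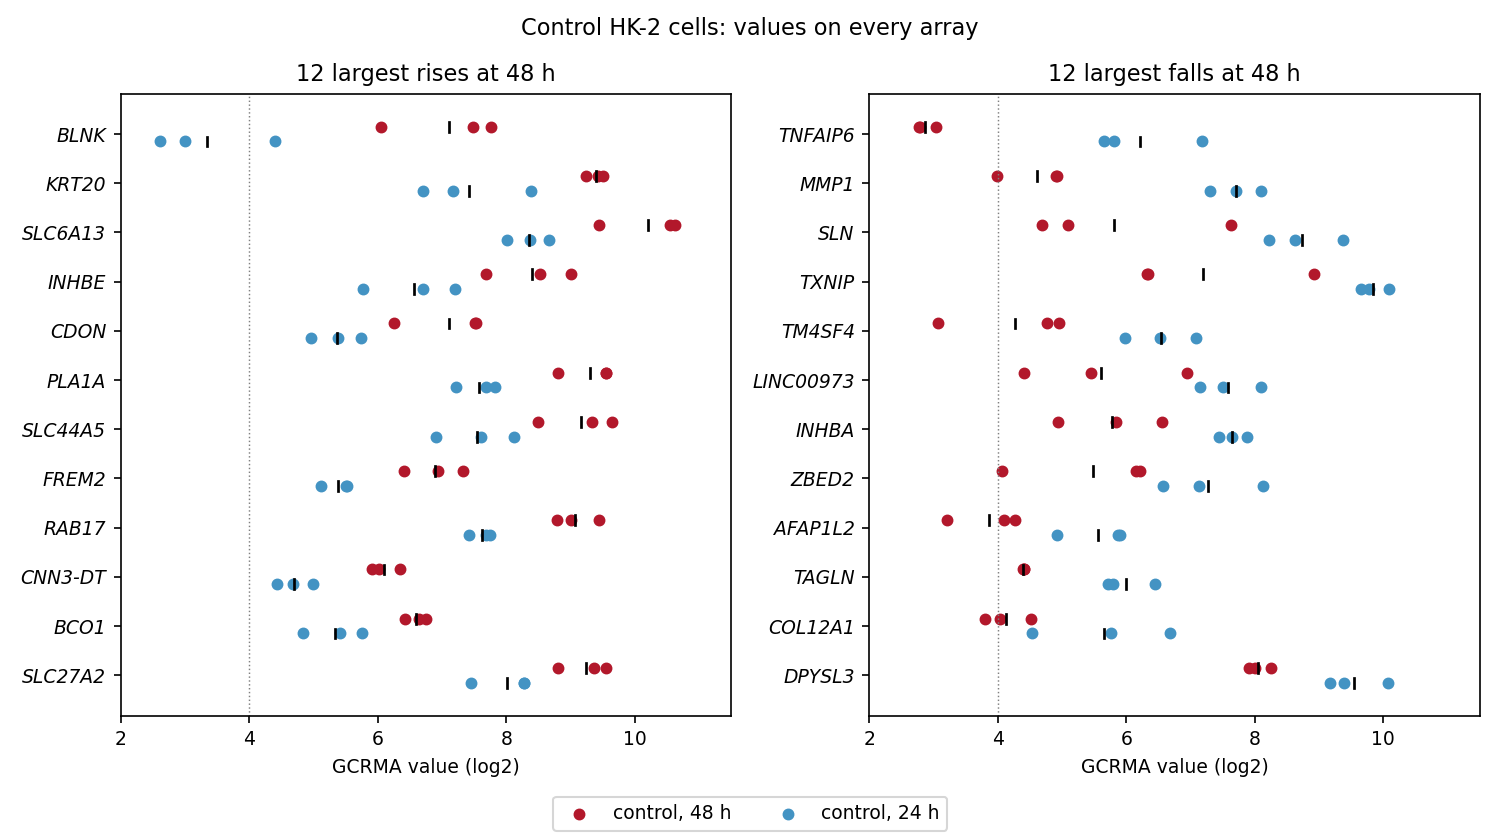
GCRMA value (log2) on each control array at 48 h (red) and at 24 h (blue) for the 12 genes with the largest rise (left) and the 12 with the largest fall (right), with the mean as a black bar and the filter value of 4 as a dotted line. No gene overlaps between the times by the rule that chose them, and SLN and TXNIP have 1 array at 48 h, that of replicate 3, far above the other two.

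The cell cycle genes fell together. Of 35 mitosis genes, all of which were tested, 28 fell and 0 rose, against 9.09% falls and 8.69% rises over all genes tested. The median change was -0.54, with a median of -0.01 over all genes tested, and the medians within the pairs were -0.48, -0.53 and -0.57. In 32 of the 35 the times did not overlap, against 23.1% of all genes. MYBL2 had the lowest p. MYBL2 had log2 values of 9.36, 8.90 and 9.88 at 48 h, against 10.39, 10.12 and 10.53 at 24 h, and the mean change was -0.96 (SE 0.12, adjusted p = 0.00309). FOXM1, the transcription factor of the G2 and M phases, was lower by a like amount in each pair. FOXM1 values were 8.96, 8.52 and 9.11 at 48 h, against 9.71, 9.32 and 9.87 at 24 h (log2), a change of -0.77 (SE 0.10, adjusted p = 0.00344). KIF23, whose promoter is printed above, and MKI67 were lower in every pair. KIF23 measured 9.23, 9.27 and 9.46 at 48 h, against 9.81, 9.84 and 10.30 at 24 h (log2), and changed by -0.66 (SE 0.09, adjusted p = 0.00404). MKI67 had log2 values of 11.09, 11.13 and 11.55 at 48 h, against 11.85, 11.86 and 12.13 at 24 h, and the mean change was -0.69 (SE 0.10, adjusted p = 0.00477). Replicate 3 was the highest of each time for both. CDC20, an activator of the anaphase-promoting complex, changed by -0.90 (SE 0.14, adjusted p = 0.00583), and BIRC5, which encodes survivin, by -0.58 (SE 0.08, adjusted p = 0.00449). Without shared probe sets the change of BIRC5 was -1.17. In RNA from whole cultures, fewer dividing cells and less of these transcripts per cell cannot be told apart.

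DNA replication and G1/S genes fell too. Of 43 tested, 23 fell (53.5%, against 9.09% of all genes tested) and 0 rose, with a median of -0.38 and pair medians of -0.37, -0.44 and -0.23. MCM10 loads replication factors onto licensed origins. MCM10 values were 7.27, 7.24 and 8.06 at 48 h, against 8.56, 8.73 and 8.90 at 24 h (log2), a change of -1.21 (SE 0.12, adjusted p = 0.00193). The call of MCM10 rests on a shared probe set: without such probe sets its change was -0.60 (adjusted p = 0.0543). CCNA2, the cyclin of S and G2 phase, fell in all pairs. CCNA2 measured 10.33, 10.40 and 10.92 at 48 h, against 11.32, 11.29 and 11.59 at 24 h (log2), and changed by -0.85 (SE 0.10, adjusted p = 0.00298). UHRF1, which maintains DNA methylation at the fork, changed by -0.64 (SE 0.08, adjusted p = 0.00297). Among the loading and helicase factors the values were -0.95 (SE 0.12, adjusted p = 0.00335) for CDC6, -1.06 (SE 0.14, adjusted p = 0.00335) for CDC45 and -0.51 (SE 0.07, adjusted p = 0.00376) for MCM7, and only MCM7 overlapped between the times. H2AX, a histone variant that marks DNA breaks when phosphorylated, changed by -0.85 (SE 0.08, adjusted p = 0.00129). The calls rest on the pairing: without the block 1 mitosis gene and 4 replication genes fell. Without replicate 1, 2 or 3, the counts of falls were 0, 3 and 20 for mitosis and 0, 5 and 13 for replication, while the list medians stayed between -0.59 and -0.45 and between -0.40 and -0.33 in all alternatives. On the 6 control arrays alone, 29 and 18 fell.

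Of the quiescence and CDK inhibitor genes, 7 of 18 tested rose and 1, TXNIP, fell (44.4% called, against 17.8% of all genes tested, where 8.69% rose). TOB1, an antiproliferative protein of the BTG family, was higher. TOB1 had log2 values of 10.51, 10.32 and 10.06 at 48 h, against 9.78, 9.69 and 9.71 at 24 h, and the mean change was 0.57 (SE 0.09, adjusted p = 0.00495). CDKN1B, which encodes the CDK inhibitor p27, rose in all 3 pairs, least in the third. CDKN1B values were 11.20, 11.04 and 10.61 at 48 h, against 10.59, 10.45 and 10.27 at 24 h (log2), a change of 0.51 (SE 0.08, adjusted p = 0.00592). CDKN1C (p57) changed by 0.56 (SE 0.11, adjusted p = 0.0106), FOXO3 by 0.39 (SE 0.08, adjusted p = 0.0121) and BTG1 by 0.41 (SE 0.09, adjusted p = 0.0161), and for these 3 genes the times overlapped. The list median was 0.14, with pair medians of 0.11, 0.20 and 0.16. None of these calls held without the block. Without replicate 1, 2 or 3 the rises numbered 0, 0 and 4. On the mean of its probe sets TOB1 changed by 0.36.

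**Figure D2:**
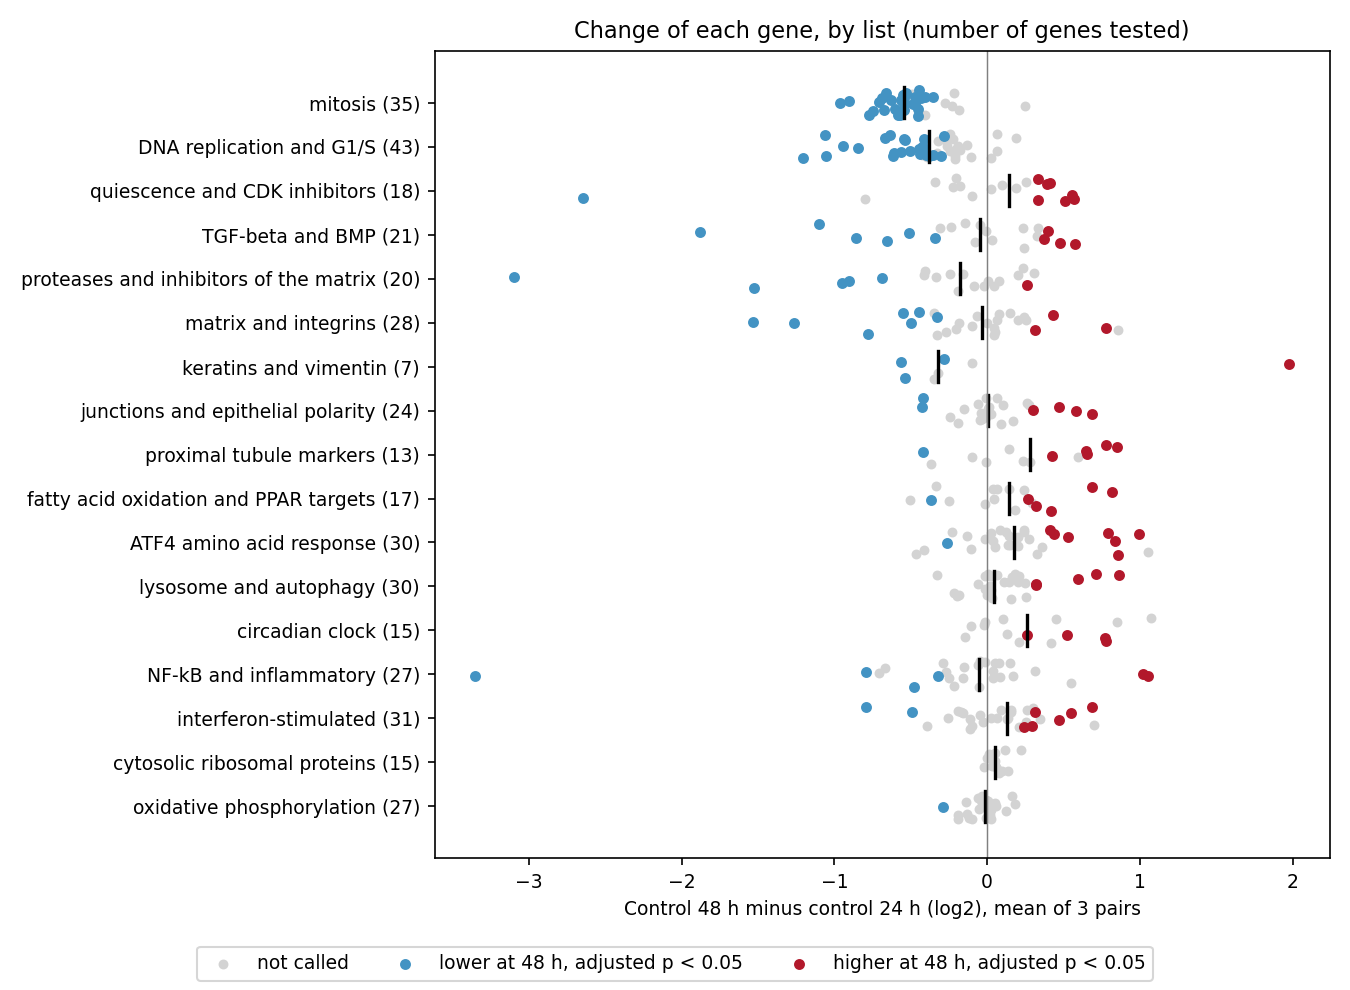
Change of each tested gene (control 48 h minus control 24 h, log2, mean of the 3 pairs) by list (genes tested in parentheses), with called genes in red (higher at 48 h) or blue (lower), genes not called in grey, and the list median as a black bar. Mitosis (median -0.54) and DNA replication (median -0.38) lie to the left of 0, while ribosomal proteins (median 0.05) stay close to it.

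Secreted and matrix genes changed in both directions. In the TGF-beta and BMP list, 6 of 21 fell and 4 rose (47.6% called, against 17.8% of all genes tested). TGFBI, a matrix protein named for its induction by TGF-beta, had the lowest p. TGFBI measured 9.77, 9.33 and 9.76 at 48 h, against 11.13, 10.35 and 10.68 at 24 h (log2), and changed by -1.10 (SE 0.10, adjusted p = 0.00129). PMEPA1, a feedback inhibitor of the pathway, changed by -0.86 (SE 0.10, adjusted p = 0.00293). LTBP2, a protein of the latent TGF-beta binding family, changed by -0.65 (SE 0.13, adjusted p = 0.0119), and the ligand gene TGFB2 by -0.51 (SE 0.11, adjusted p = 0.0137), or -0.93 on the mean of its probe sets. Beside these, the receptor gene BMPR2 rose by 0.37 (SE 0.07, adjusted p = 0.0129), with overlap, but on the mean of its probe sets the change of BMPR2 was 0.04 (adjusted p = 0.746). The list median was -0.05. Without the block 2 members, both lower, were called.

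Of 20 proteases and inhibitors of the matrix, 5 fell and 1 rose (30.0%, against 17.8% of all genes tested), with a median of -0.18. Besides MMP1 these were PLAUR, the urokinase receptor. PLAUR had log2 values of 6.25, 6.25 and 7.35 at 48 h, against 7.25, 7.44 and 7.99 at 24 h, and the mean change was -0.95 (SE 0.12, adjusted p = 0.00309). Without shared probe sets the change of PLAUR was -0.57 and was not called (adjusted p = 0.204). MMP7, or matrilysin, changed by -0.90 (SE 0.16, adjusted p = 0.00902), SERPINE2, a protease inhibitor, by -0.69 (SE 0.10, adjusted p = 0.00414), and PLAT, tissue plasminogen activator, by -1.53 (SE 0.29, adjusted p = 0.0105). TIMP2, an inhibitor of metalloproteinases, rose by 0.26 (SE 0.06, adjusted p = 0.0225), but on the mean of its probe sets the change of TIMP2 was 0.10 (adjusted p = 0.355). The times overlapped for PLAUR, PLAT and TIMP2. In the matrix and integrin list 7 of 28 fell and 3 rose (35.7%), with a median of -0.03. COL7A1, the anchoring fibril collagen, changed by -0.78 (SE 0.08, adjusted p = 0.00197), THBS1, thrombospondin 1, by -1.26 (SE 0.22, adjusted p = 0.00805) and COL6A1 by -0.45 (SE 0.08, adjusted p = 0.00955). Without shared probe sets the direction of COL6A1 turned (0.017, adjusted p = 0.931). ITGB8, an integrin subunit that can activate latent TGF-beta, rose by 0.78 (SE 0.10, adjusted p = 0.0034), and LAMB1, a laminin chain, by 0.43 (SE 0.08, adjusted p = 0.0101). Beside these lists, the mean log2 level of 7 fibroblast markers was 5.76 to 5.86 on the 48 h arrays and 5.86 to 6.04 on the 24 h arrays. Of the 7, DCN, LUM and COL1A1 passed the filter, and PDGFRA, PDGFRB, COL3A1 and POSTN lay between 2.62 and 3.12. The part of this in the matrix result was not tested.

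KRT8 and KRT18, the keratin pair of simple epithelia, fell. KRT8 changed by -0.56 (SE 0.11, adjusted p = 0.0125), KRT18 by -0.54 (SE 0.12, adjusted p = 0.0163) and vimentin (VIM), the mesenchymal filament, by -0.28 (SE 0.06, adjusted p = 0.0163). The times did not overlap for any of the 3. With KRT20 as the 1 rise, 4 of 7 genes of this list were called (57.1%, against 17.8% of all genes tested). Of 24 junction and polarity genes 4 rose and 2 fell (25.0%, against the same 17.8%). GJA1, the gap junction protein connexin 43, rose by 0.69 (SE 0.12, adjusted p = 0.0081), the tight junction protein OCLN by 0.47 (SE 0.09, adjusted p = 0.0129), the kidney cadherin CDH16 by 0.58 (SE 0.14, adjusted p = 0.0241) with overlap, and EPCAM by 0.30 (SE 0.08, adjusted p = 0.0398). CGN (cingulin) changed by -0.42 (SE 0.09, adjusted p = 0.0165).

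Of 13 proximal tubule markers tested, from 34 listed, 5 rose and 1 fell (46.2%, against 17.8% of all genes tested, where 8.69% rose). The list median was 0.28, with pair medians of 0.23, 0.41 and 0.38. PDZK1 is a scaffold of apical transporters. PDZK1 values were 11.54, 11.41 and 10.71 at 48 h, against 10.75, 10.85 and 10.13 at 24 h (log2), a change of 0.65 (SE 0.08, adjusted p = 0.00323). MIOX breaks down myo-inositol. MIOX measured 10.05, 9.75 and 9.54 at 48 h, against 9.25, 9.05 and 9.06 at 24 h (log2), and changed by 0.65 (SE 0.10, adjusted p = 0.00449). SLC3A1 is the heavy subunit of the cystine transporter. SLC3A1 had log2 values of 10.01, 9.96 and 8.73 at 48 h, against 8.81, 8.98 and 8.35 at 24 h, and the mean change was 0.85 (SE 0.19, adjusted p = 0.0168). PDZK1 and SLC3A1 overlapped between the times since replicate 3 was the lowest at both. ENPEP, a brush border aminopeptidase, changed by 0.78 (SE 0.14, adjusted p = 0.00878) and GATM, an enzyme of creatine synthesis, by 0.42 (SE 0.10, adjusted p = 0.0239). CDH6, a cadherin of the developing tubule, changed by -0.42 (SE 0.12, adjusted p = 0.0384), a direction that turned on another probe set of the gene (0.37, adjusted p = 0.101). None of these calls held without the block, and without replicate 1, 2 or 3 the rises numbered 0, 2 and 4. Over all alternatives the list median lay between -0.01 and 0.37.

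**Figure D3:**
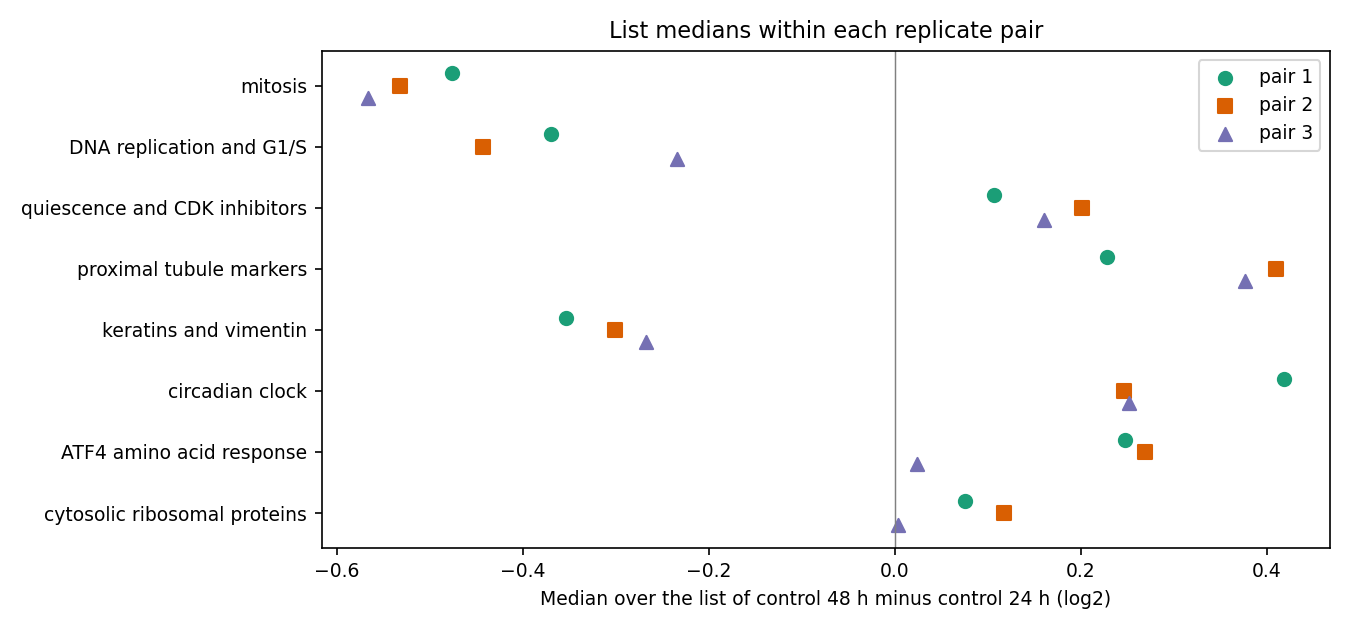
Median change of gene lists (control 48 h minus control 24 h, log2) within replicate pair 1 (circle), 2 (square) and 3 (triangle). The mitosis medians lie between -0.57 and -0.48 and the proximal tubule medians between 0.23 and 0.41, and for the ATF4 list pair 3 lies near 0.

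Of 30 genes of the ATF4 response, which supports amino acid supply, 7 rose and 1 fell (26.7%, against 17.8% of all genes tested, where 8.69% rose), with a median of 0.17 and pair medians of 0.25, 0.27 and 0.02. TRIB3, a pseudokinase that feeds back on ATF4, changed by 0.53 (SE 0.08, adjusted p = 0.00422). CTH, which makes cysteine, changed by 0.79 (SE 0.12, adjusted p = 0.00493), the amino acid transporter SLC38A2 by 0.41 (SE 0.07, adjusted p = 0.00729), the serine synthesis enzyme PSPH by 0.44 (SE 0.09, adjusted p = 0.0153) and DDIT3, which encodes the stress factor CHOP, by 0.99 (SE 0.22, adjusted p = 0.0162). WARS1, a tryptophan tRNA synthetase, fell by 0.26 (SE 0.06, adjusted p = 0.023). Without replicate 1, 2 or 3 the rises of the list numbered 0, 1 and 4. In fatty acid oxidation and PPAR targets 5 of 17 rose and 1 fell (35.3%). PPARA, the receptor that drives the programme, was higher by 0.81 (SE 0.13, adjusted p = 0.00522) and PDK4, which restrains pyruvate oxidation, by 0.68 (SE 0.14, adjusted p = 0.015). The dehydrogenase ACADM changed by 0.42 (SE 0.09, adjusted p = 0.0184), PPARD by 0.32 (SE 0.08, adjusted p = 0.0306) and HADHB by 0.27 (SE 0.08, adjusted p = 0.0494), while ETFDH changed by -0.36 (SE 0.09, adjusted p = 0.0258). On the mean of probe sets the change was 0.51 for PPARA, 0.17 for PPARD (adjusted p = 0.283) and -0.29 for ETFDH (adjusted p = 0.132).

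Of 30 lysosome and autophagy genes 5 rose and 0 fell (16.7%), a share near the 17.8% of all genes tested. RRAGD, a GTPase that recruits mTORC1 to the lysosome, changed by 0.71 (SE 0.07, adjusted p = 0.00187). GPNMB, a lysosomal glycoprotein, changed by 0.86 (SE 0.09, adjusted p = 0.00232) and ATP6V1A, a subunit of the proton pump, by 0.59 (SE 0.08, adjusted p = 0.00406), with LAMP2 at 0.32 (SE 0.08, adjusted p = 0.0226) and HEXA at 0.32 (SE 0.09, adjusted p = 0.0362). Without shared probe sets HEXA changed by 0.15 (adjusted p = 0.701). The clock list had 4 rises and 0 falls of 15 (26.7%) and a median of 0.26. BHLHE41, a repressor of the clock, rose by 0.77 (SE 0.09, adjusted p = 0.00269) and HLF, a PAR-domain factor, by 0.78 (SE 0.10, adjusted p = 0.00309). NFIL3 changed by 0.26 (SE 0.07, adjusted p = 0.0406) and NR1D2 by 0.52 (SE 0.16, adjusted p = 0.0486).

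Of 27 NF-kB targets and cytokines 2 rose and 4 fell (22.2%), a share near the 17.8% of all genes tested. The complement factor CFB was higher by 1.05 (SE 0.10, adjusted p = 0.00192) and the chemokine CCL2 by 1.02 (SE 0.13, adjusted p = 0.00335). The cytokine IL32 changed by -0.79 (SE 0.12, adjusted p = 0.00542), LIF by -0.48 (SE 0.13, adjusted p = 0.0408) and the NF-kB subunit RELA by -0.32 (SE 0.09, adjusted p = 0.0364), and CCL2, IL32 and LIF overlapped between the times. Of 31 interferon-stimulated genes 6 rose and 2 fell (25.8%). The antiviral enzyme OAS3 changed by -0.79 (SE 0.11, adjusted p = 0.00404) and ISG15, a ubiquitin-like modifier, by -0.49 (SE 0.09, adjusted p = 0.0104), while IFITM1 was higher by 0.69 (SE 0.11, adjusted p = 0.00509) and the RNA sensor IFIH1 by 0.47 (SE 0.09, adjusted p = 0.0114). FOSL1, which encodes the AP-1 subunit FRA1, was the 1 fall among 21 immediate early genes, of which 2 rose. FOSL1 values were 5.24, 3.87 and 6.41 at 48 h, against 6.59, 6.36 and 7.94 at 24 h (log2), a change of -1.79 (SE 0.24, adjusted p = 0.00374). The times overlapped, since replicates 1 and 3 were higher than replicate 2 at both.

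Of 18 kidney injury markers 5 rose and 3 fell (44.4%, against 17.8% of all genes tested). Clusterin (CLU), a secreted chaperone, was higher by 0.64 (SE 0.08, adjusted p = 0.00297) and the surface receptor CD44 changed by -0.38 (SE 0.09, adjusted p = 0.0215), or -0.59 on the mean of its probe sets. Of 23 p53 targets 4 rose and 3 fell (30.4%). GDF15, a stress cytokine that both lists hold, rose by 0.77 (SE 0.15, adjusted p = 0.0123), while TIGAR, a regulator of glycolysis, changed by -0.55 (SE 0.08, adjusted p = 0.00469) and the quinone oxidoreductase TP53I3 by -0.57 (SE 0.13, adjusted p = 0.0185).

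The remaining lists are given as rises and falls of genes tested, to be read against 8.69% rises and 9.09% falls over all genes. They were 4 and 1 of 22 for glycolysis, 3 and 1 of 23 for hypoxia, 4 and 3 of 21 for the unfolded protein response, 2 and 1 of 19 for cholesterol synthesis and uptake, and 2 and 2 of 14 for lipid synthesis. They were 0 and 1 of 15 for heat shock, 1 and 1 of 21 for NRF2 targets, 1 and 1 of 10 for metallothioneins and zinc, 0 and 1 of 14 for aryl hydrocarbon receptor and xenobiotic genes, and 1 and 0 of 6 for LXR targets. Glucocorticoid targets had 4 and 1 of 14, the EGF receptor pathway 2 and 2 of 19, YAP and TEAD targets 1 and 2 of 22, WNT and NOTCH genes 2 and 1 of 17, and secreted growth factors 4 and 1 of 21. Ribosome biogenesis had 1 and 2 of 22, histones 0 and 1 of 6, oxidative phosphorylation 0 and 1 of 27, and cytosolic ribosomal proteins 0 and 0 of 15. At an unadjusted p under 0.05, limma called 2 ribosomal protein genes. Markers of fibroblasts had 0 and 1 of 4, those of the distal nephron and of endothelium 0 and 0 of 1 each, and no leukocyte marker was tested.

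The same interval was then set against that in cells exposed to Aa. In Aa-exposed cells 1228 genes were higher at 48 h than at 24 h (11.4% of genes tested) and 1075 lower (9.96%), 21.3% in all. Of the genes higher at 48 h in control cells, 262 were also higher in Aa-exposed cells, which is 27.9% of the control list and 21.3% of the Aa list. For the falls it was 208 genes, 21.2% and 19.3%. Another 40 genes rose in control cells and fell in Aa-exposed cells, and 104 genes did the reverse. The change in control cells minus the change in Aa-exposed cells was tested as an interaction, and 1183 genes were called (11%), with 505 positive (4.68%) and 678 negative (6.28%). Without the block 89 genes were called for the difference, and without replicate 1, 2 or 3 it was 0, 445 and 1. At an unadjusted p under 0.05, limma called 1962 genes without replicate 1.

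Mitosis genes parted between the treatments. Their median change was -0.54 in control cells and 0.49 in Aa-exposed cells, where 30 of 35 rose and 0 fell, and the difference was called for 34 of 35, all with the control change lower, against 6.28% of all genes tested. For MKI67 the change was -0.69 in control cells and 0.56 in Aa-exposed cells (difference -1.25 (SE 0.15, adjusted p = 0.00579)). The difference was -1.25 (SE 0.14, adjusted p = 0.00579) for FOXM1 and -0.92 (SE 0.17, adjusted p = 0.0146) for MYBL2, whose Aa change was -0.05. Replication genes had negative medians in both, -0.38 in control cells and -0.27 in Aa-exposed cells, where 17 of 43 fell and 2 rose, and 9 were called for the difference, against 11% of all genes tested. Of the proximal tubule markers 3 of 13 were called for the difference, and of the TGF-beta and BMP genes 4 of 21.

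**Figure D4:**
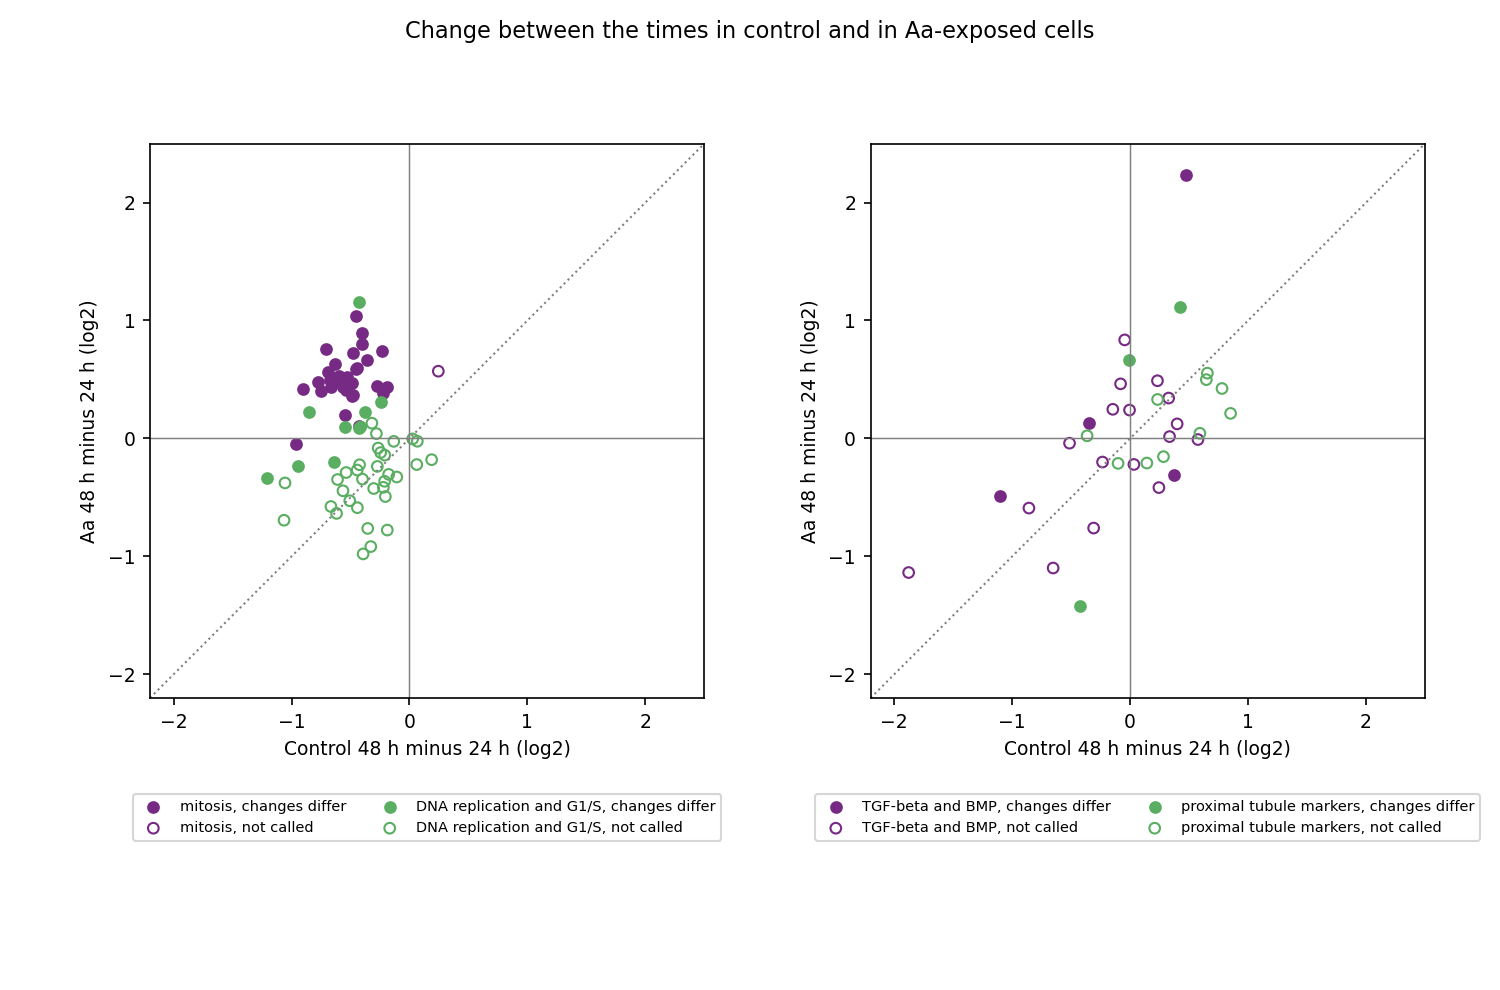
Change between the times in control cells (x axis, 48 h minus 24 h, log2) against that in Aa-exposed cells (y axis) for mitosis and replication genes (left) and for TGF-beta, BMP and proximal tubule genes (right), with filled points where the difference was called, open points where it was not, and a dotted line of equality. Mitosis genes lie to the upper left, with medians of -0.54 and 0.49.

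Single genes with the largest differences were as follows. In control cells TNFAIP6 fell, while in Aa-exposed cells it had 6.57, 6.45 and 5.91 at 48 h, against 5.91, 5.62 and 6.03 at 24 h, a difference of -3.81 (SE 0.48, adjusted p = 0.00633). CDKN2B, the CDK inhibitor p15, showed no called change in control cells (-0.80 (SE 0.27, adjusted p = 0.075)). CDKN2B had log2 values of 3.85, 3.68 and 3.56 at 48 h, against 3.91, 4.79 and 4.80 at 24 h in control cells. In Aa-exposed cells it had 7.19, 7.65 and 6.99 at 48 h, against 5.43, 4.81 and 5.12 at 24 h (difference -2.96 (SE 0.39, adjusted p = 0.00704)). The 48 h control arrays of CDKN2B lay under 4, so the size of its difference is uncertain. ENC1, an actin-associated kelch protein, was lower at 48 h in control cells (-0.60 (SE 0.16, adjusted p = 0.0358)) and higher in Aa-exposed cells (2.00 (SE 0.16, adjusted p = 0.000624)), and FOSL1 differed by -2.52 (SE 0.34, adjusted p = 0.00704). CCNA1, cyclin A1, differed by -2.91 (SE 0.69, adjusted p = 0.0317), with no called change in control cells.

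In the other direction GPC6, a cell surface proteoglycan, differed by 3.23 (SE 0.75, adjusted p = 0.0303). GPC6 had log2 values of 9.49, 9.74 and 9.00 at 48 h, against 8.35, 8.47 and 8.51 at 24 h in control cells. In Aa-exposed cells it had 3.12, 6.39 and 4.15 at 48 h, against 6.52, 7.06 and 6.90 at 24 h, and the change in control cells was not called (0.96 (SE 0.53, adjusted p = 0.239)). KCNQ5, a potassium channel, rose in control cells (0.91 (SE 0.27, adjusted p = 0.0469)) and fell in Aa-exposed cells (-1.49 (SE 0.27, adjusted p = 0.00747)). Its 48 h Aa arrays measured 3.14, 3.70 and 3.18, under the filter value of 4, so the size of that fall is uncertain. SLC7A11, the cystine and glutamate exchanger, differed by 2.34 (SE 0.57, adjusted p = 0.0354), and its changes were 1.05 (SE 0.40, adjusted p = 0.105) in control cells and -1.29 (SE 0.40, adjusted p = 0.0517) in Aa-exposed cells. For CHMP2A, a subunit of the ESCRT-III complex, and GALNT13, an enzyme of O-glycosylation, the control change was not called (0.06 (SE 0.38, adjusted p = 0.938) and -0.42 (SE 0.33, adjusted p = 0.401)), and the differences were 2.60 (SE 0.53, adjusted p = 0.0199) and 2.11 (SE 0.46, adjusted p = 0.0253). GPC6 and GALNT13 each had a 48 h Aa array under 4 (3.12 and 3.24), and whether these arrays exceed background was not tested. Of the 12 largest rises and 12 largest falls in control cells, 5 and 7 changed in the same direction in Aa-exposed cells as well, where 11.4% of all genes tested rose and 9.96% fell.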

How the data were processed

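Biotin-labelled RNA from HK-2 cells was measured on 12 Affymetrix arrays, 3 for each of the 4 groups. The authors deposited log2 values (0.82 to 16.25), normalised with GCRMA per the submitters' processing notes, version not stated. Of 54675 probe sets, 41097 had 1 symbol, 1801 several and 11777 no entry in the platform annotation; 41043 symbols were updated by gene ID (GRCh38.p14) and 54 kept. Each gene was taken at its brightest probe set with a mean of at least 4, which left 10791 genes.

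A limma 3.58.1 (R 4.3.3) model of 4 group means and the replicate number as a block was fitted to all 12 arrays (6 residual and 2.87 prior degrees of freedom) with lmFit and eBayes. Tests were two-sided, and p was adjusted by Benjamini-Hochberg over all genes tested. The labels number biological replicates without saying whether cultures were separate, so a p-value covers only the spread among these arrays, which may be technical. Pairing by replicate number was set in advance by the comparison. After subtracting group means, r was 0.35 to 0.62 for the 18 same-numbered array pairs and, for the 36 others, -0.49 to -0.01. The subtraction pushes the others below 0 once same-numbered arrays correlate, so their negative values are no separate support.

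The members, the 41 gene lists and the alternatives were chosen with earlier results of these data known. Named genes were the 12 largest rises and falls among called genes without overlap and with a mean of at least 5 at the higher time, 5 each way for the difference, and up to 6 members of each list with the smallest p, or 3 where none was called. Gene families were added after values were seen. The fit was tested on simulated data. Alternatives left out the block, arrays, shared probe sets or the filter, or changed the normalisation or eBayes setting.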

Additional observations from a re-analysis of the deposited data

Results flagged for a closer look

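Of the 124 genes named, 54 were called for a change between the times that differed between control cells and Aa-exposed cells, in the limma interaction (adjusted p under 0.05, 3 arrays per group, with the replicate block). Over all genes tested 11% were called. The count is a description only, since 10 genes were named for this difference and many others by their change in control cells, which is part of it. The values here are the log2 change in control cells minus that in Aa-exposed cells. Among cell cycle and histone genes the difference was -1.07 for BIRC5, -1.32 for CDC20, -1.25 for FOXM1, -1.10 for KIF23, -1.25 for MKI67, -0.92 for MYBL2, -1.08 for CCNA2, -0.71 for CDC6, -0.87 for MCM10, -0.44 for UHRF1 and -0.98 for H2AX, all negative. Among inhibitors and related genes it was 0.47 for CDKN1B, -2.96 for CDKN2B, -2.91 for CCNA1, 0.44 for FOXO3 and -1.34 for TP53I3. Among matrix, protease, growth factor and surface genes it was -3.81 for TNFAIP6, -0.61 for TGFBI, 0.68 for BMPR2, 1.33 for INHBE, -1.18 for PLAUR, -0.57 for SERPINE2, -0.45 for COL7A1, -1.01 for CD44, 0.73 for LGR4, 0.83 for IGF1R, 3.23 for GPC6, 1.70 for CDON and -2.12 for TM4SF4. Among epithelial, cytoskeletal and tubule genes it was -0.72 for KRT8, 0.97 for GJA1, 1.00 for CDH6, -0.69 for GATM, -0.80 for DPYSL3 and -2.61 for ENC1. Among transport, channel and metabolic genes it was 1.89 for SLC44A5, 1.11 for SLC6A13, 2.34 for SLC7A11, 2.40 for KCNQ5, -2.28 for SLN, 0.91 for BCO1, 0.73 for PPARA, 0.68 for PPARD, -0.63 for ETFDH, 2.11 for GALNT13 and 2.60 for CHMP2A. Among stress, hormone and inflammatory genes it was 0.55 for TRIB3, 0.63 for NR3C1, -2.52 for FOSL1, 1.25 for CCL2, -0.73 for LIF, -1.13 for OAS3, -0.55 for ISG15 and 0.64 for IFIH1. Without replicate 1 limma called 0 genes in the whole comparison for this difference (1962 at an unadjusted p under 0.05), and without replicate 3 it called 1.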

How the results depend on the processing

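The counts depended on the pairing and on single arrays more than on normalisation. Without the replicate block limma called 54 genes for control cells at 48 h against 24 h and 89 for the difference from Aa-exposed cells, in place of 1919 and 1183, and without probe sets marked as shared 1250 genes for the time comparison. Leaving out 1 replicate or 1 control array gave 2 to 1609 genes for the time comparison and 0 to 1078 for the difference. At an unadjusted p under 0.05, limma called 2266 genes where the adjusted count was 2, and 1962 where it was 0. Without replicates 1, 2 and 3 the time comparison called 2, 286 and 654 genes and the difference 0, 445 and 1. Without the single 48 h control arrays of replicates 1, 2 and 3 it was 709, 958 and 1609 for the time comparison and 464, 755 and 1078 for the difference, and without the 24 h arrays 815, 809 and 1074, and 750, 511 and 598. The 6 control arrays alone, median centring, quantile normalisation, no filter, a filter of 6, the mean of probe sets, and eBayes with trend or robust kept both counts, where they could be computed, within 1.5 times. The filter changes the number of genes tested, so counts are not shares: with no filter, 1563 of 19775 genes were called for the time comparison. Over all genes that the rule names, 3361 values kept their call or their lack of one, 1022 lost the call and 85 gained one. Values that changed sign with no call in either run are counted among the 3361. For 4 genes called in the main fit the direction reversed, all without shared probe sets: HSPA4 (0.10), NR3C1 (-0.13), COL6A1 (0.017) and CDH6 (0.37). None of these 4 passed the test there, and for them the rerun used another probe set of the gene. Of 12 named rises and 12 named falls, 5 and 5 were called without the block, and 1 and 1 without replicate 1. Their direction could not turn in either run, since these genes were chosen for times that do not overlap. Under the alternatives 672 list medians moved by less than the spread of the 3 pairs and 87 by more. With 3 arrays per group their number limits the precision.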

Other observations

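LGR4, a receptor that strengthens WNT signalling, was higher at 48 h. LGR4 measured 9.64, 9.97 and 9.60 at 48 h, against 9.02, 9.00 and 8.91 at 24 h (log2), and changed by 0.76 (SE 0.10, adjusted p = 0.00344). On the mean of its probe sets the change of LGR4 was 0.44. IGF1R, the receptor for insulin-like growth factor, changed by 0.73 (SE 0.12, adjusted p = 0.00572). STC2, a secreted glycoprotein, changed by 0.84 (SE 0.23, adjusted p = 0.0399), and INSIG1, which holds back sterol synthesis, by 0.72 (SE 0.13, adjusted p = 0.00833). BNIP3, a mitophagy receptor, changed by 0.48 (SE 0.07, adjusted p = 0.00418), the glycolytic regulator PFKFB2 by 0.61 (SE 0.14, adjusted p = 0.0194), or 0.39 on the mean of its probe sets, and HERPUD1, a protein of endoplasmic reticulum degradation, by 0.42 (SE 0.07, adjusted p = 0.00601).

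Some gene families were singled out by their symbols after the values had been seen, and their counts stand against 9.09% lower and 8.69% higher over all genes tested. Of 28 kinesins tested 12 were lower and 1 was higher, with a median of -0.23. Of 20 centromere proteins 10 were lower and 0 higher, with a median of -0.36. Of 18 tubulins 9 were lower and 0 higher, with a median of -0.45. Of 202 solute carriers 33 were higher and 18 lower, with a median of 0.05. Without the block no kinesin, centromere protein or tubulin kept its call, and 4 solute carriers were higher and 1 lower. The kinesins and centromere proteins share members with the mitosis list.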
